A study of Mus musculus with 21 samples.

Results

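A run of neighboring genes on each of mouse chromosomes 6, 11 and 10 stood highest above the median tumor in 1 mammary tumor, R-1, R-2 and R-6 in that order, all of them RhoC tumors, while other RhoC tumors had milder rises of the runs on chromosomes 6 and 11. The 41 genes described here are those of 23203 in the authors' table that start at 113.2 to 113.6 Mb of chromosome 6, 103.36 to 104 Mb of chromosome 11 or 13.4 to 14.8 Mb of chromosome 10 (GRCm38), after some genes of these windows were left out by name. Counts of members are therefore not counts of every gene in a window. They were 19, 9 and 13 genes, of which 16, 7 and 10 passed the filter on low counts. The runs were chosen by the expression of these same tumors, as log2 counts per tumor minus the median of all tumors, and the levels in R-1, R-2 and R-6 are therefore a description without a test.

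RNA was sequenced in bulk from 21 mammary tumors of virgin female mice. The 12 RhoC tumors carried R26(RhoC/+);FloxNeoNeuNT;MMTV-CreNLST, which places a Cre-dependent mouse RhoC cDNA in the R26 locus, together with the activated Neu allele. The 9 NeuNT control tumors lacked the RhoC allele, and 7 of them were Gata4(loxP/+);FloxNeoNeuNT;MMTV-CreNLST and 2 were FloxNeoNeuNT;MMTV-CreNLST. Both groups thus shared the Neu allele, which lies in the *Erbb2* locus, and the Cre transgene, which the MMTV promoter drives in mammary epithelium. The controls came from 9 mice and the RhoC tumors from 8, with R-13, R-14, R-15 and R-16 from mouse P497 and R-6 and R-7 from mouse N9255, so p-values measure the spread between tumors, some of which share a mouse. In bulk tumors, fewer cells of a type and less RNA per cell cannot be told apart.

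Total counts ran from 47552423 to 100741339 in controls and from 47309780 to 85326903 in RhoC tumors. *Rhoc* was at 81.3 normalized CPM (counts scaled to library size) in R-1, 22.8 in R-2 and 79.2 in R-6, against 26 to 172 in controls, so that it did not separate the groups. All 8 markers of luminal epithelium had reads in every tumor. Summed markers of basal and squamous epithelium reached 21842 CPM in R-6, 14751 in R-13, 6698 in R-14 and 4585 in R-12, against 5.08 in R-1 and 658 in R-2.

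Genes side by side on a chromosome usually answer to their own promoters and need not move together. A tumor can gain or amplify a stretch of chromosome, and neighbors can share an open chromatin domain or an enhancer, and each of these is known to raise adjacent genes in the same cells. Counts of RNA do not measure copy number, which was not analyzed here.

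The promoters of 4 coding genes of the chromosome 10 run are shown because these genes share a stretch but not a level in R-6: *Adat2*, *Hivep2* and *Vta1* differed from the median tumor by 4.72, 4.75 and 4.78 log2 units, and *Adgrg6*, which lies between *Hivep2* and *Vta1*, by 0.99. RefSeq promoters (GRCm38.p6, 300 bases, 250 before to 50 after the start) were found for 27 of the 41 members. Each is printed 5′ to 3′ on the strand of its gene. Capitals mark a GC box (GGGCGG, or CCGCCC on the other strand), a CCAAT box (CCAAT, or ATTGG on the other strand) or a TATA box (TATAAA, or TTTATA on the other strand).
Adat2, chr10:13552657-13552956, plus strand: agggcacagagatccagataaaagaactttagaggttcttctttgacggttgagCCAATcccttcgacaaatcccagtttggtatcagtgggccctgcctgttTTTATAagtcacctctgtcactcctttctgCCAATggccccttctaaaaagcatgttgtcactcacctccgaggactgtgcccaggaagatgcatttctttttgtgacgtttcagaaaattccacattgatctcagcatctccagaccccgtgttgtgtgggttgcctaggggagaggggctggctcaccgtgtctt
Hivep2, chr10:13966129-13966428, plus strand: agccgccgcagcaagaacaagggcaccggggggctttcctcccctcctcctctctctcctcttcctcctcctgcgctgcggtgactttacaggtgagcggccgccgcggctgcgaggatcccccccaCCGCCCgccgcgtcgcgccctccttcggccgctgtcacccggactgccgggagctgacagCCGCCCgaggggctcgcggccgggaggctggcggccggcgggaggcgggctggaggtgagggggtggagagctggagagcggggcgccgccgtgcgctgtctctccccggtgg
Adgrg6, chr10:14544987-14545286, minus strand: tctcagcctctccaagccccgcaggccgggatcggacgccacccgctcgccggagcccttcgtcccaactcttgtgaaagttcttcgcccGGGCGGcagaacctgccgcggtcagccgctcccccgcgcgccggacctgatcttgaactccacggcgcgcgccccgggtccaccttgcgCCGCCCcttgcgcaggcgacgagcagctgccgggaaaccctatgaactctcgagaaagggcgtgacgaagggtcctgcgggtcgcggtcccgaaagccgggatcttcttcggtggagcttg
Vta1, chr10:14705440-14705739, minus strand: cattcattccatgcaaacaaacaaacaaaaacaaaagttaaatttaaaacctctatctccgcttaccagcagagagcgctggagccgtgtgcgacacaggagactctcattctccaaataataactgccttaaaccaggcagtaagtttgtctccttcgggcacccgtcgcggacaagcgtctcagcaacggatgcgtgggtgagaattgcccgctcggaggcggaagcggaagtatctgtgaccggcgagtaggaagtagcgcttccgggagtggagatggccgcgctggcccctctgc

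The promoter of *Adat2* held 2 CCAAT boxes and 1 TATA box, those of *Hivep2* and *Adgrg6* held 2 GC boxes each, and that of *Vta1* held none of the 3 motifs. *Hivep2* and *Adgrg6* were close in CpG dinucleotides, with 35 and 38, while *Vta1* had 21 and *Adat2* had 6 (the median of all windows was 7). Of all 32851 windows, 35.7% held a GC box, 37.4% a CCAAT box and 13.6% a TATA box. Of the 27 members with a promoter, 14 held a GC box, 9 a CCAAT box and 1 a TATA box in the first listed window.

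Differences below are log2 CPM minus the median of all 21 tumors, so that 1 unit is 2-fold. Over the tested members, the median difference was 2.51 in R-1 for chromosome 6, 3.92 in R-2 for chromosome 11 and 4.06 in R-6 for chromosome 10. The controls lay between -0.99 and 0.16, between -0.75 and 0.21, and between -0.37 and 0.69 for these runs. Of the other 11 RhoC tumors, 7 lay above the highest control for chromosome 6, 3 for chromosome 11 and 0 for chromosome 10. In each run 1 lay below the lowest control. Of the 7, R-13, R-15 and R-16 came from mouse P497, and R-21 (0.19) and R-18 (0.27) lay close to the highest control. Such counts were not made for other stretches, so these are a description.

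**Figure D1:**
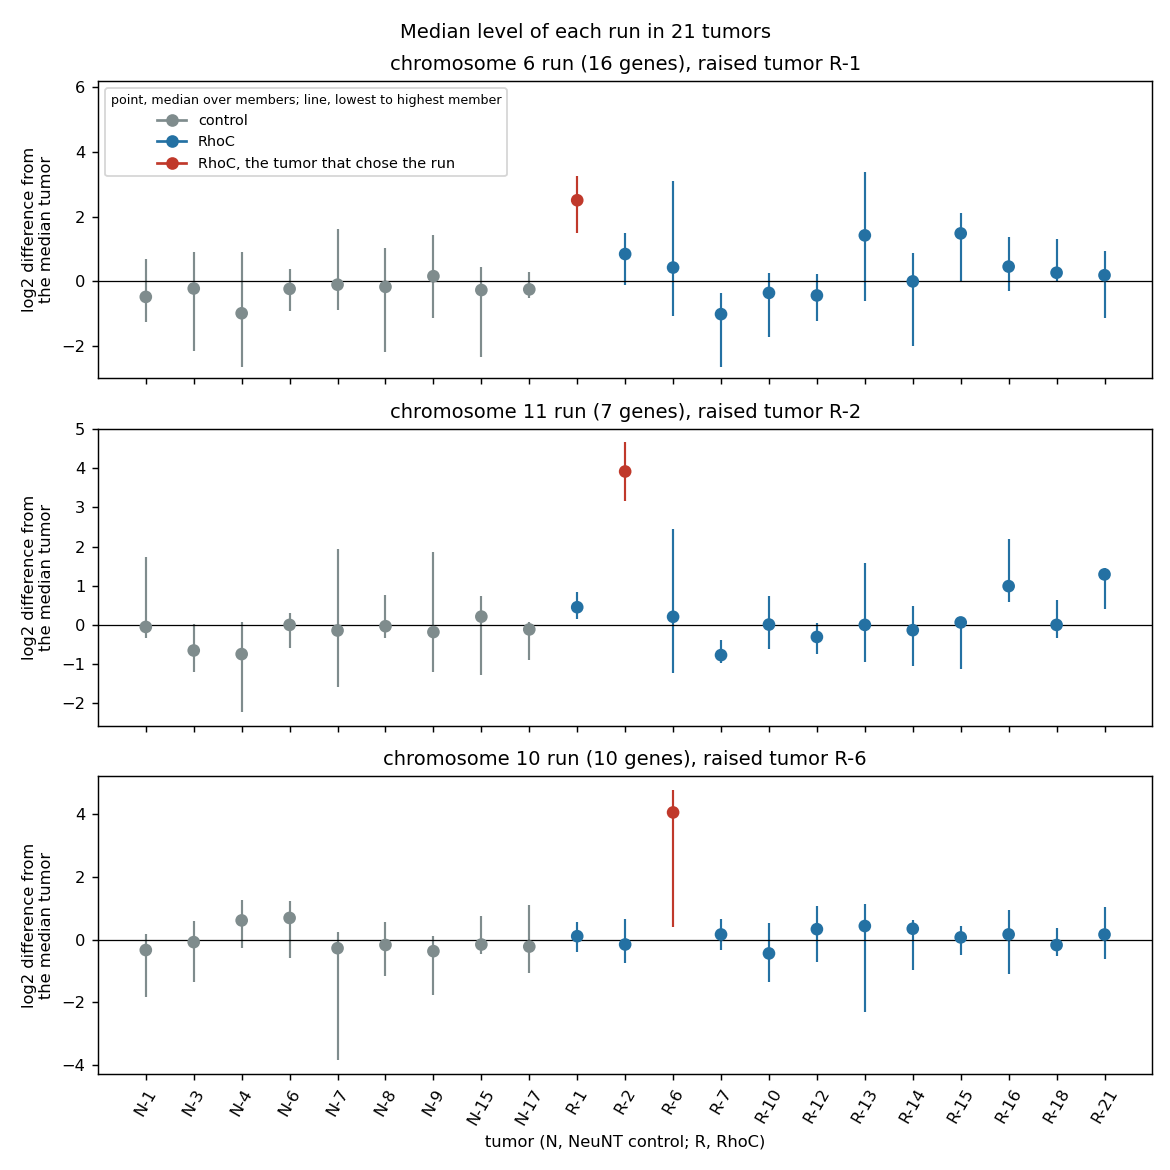
Log2 difference from the median tumor (y axis) in each of the 21 tumors (x axis) for the tested members of each run, with the median over members as a point and the lowest to the highest member as a line. The red tumors reach medians of 2.51, 3.92 and 4.06, and R-13 and R-15 lie at 1.42 and 1.49 in the chromosome 6 panel.

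In R-1, all 16 tested chromosome 6 members were more than 1 unit above the median tumor, as were 8.92% of all tested genes, and 13 of them were highest of the 21 tumors, as were 6.01% of all genes. The differences ran from 1.51 (*Gm44280*) to 3.25 (*Rpusd3*). Per length, in the authors' FPKM, the highest levels in R-1 were those of *Arpc4* at 375 and *Emc3* at 298, which were also the highest members by their median over all tumors, at 68.9 and 51.2.

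The run holds a pair of interleukin-17 receptor genes. *Il17re*, whose product takes part in the response of epithelia to IL-17C, stood at 309 CPM in R-1, against 8.60, 27.2 and 48.4 (lowest, median and highest) in controls and 11.8, 44.4 and 145 in the other RhoC tumors. *Il17rc*, a chain of the receptor for IL-17A and IL-17F, stood at 114 CPM in R-1, against 3.26, 10.7 and 15.7 in controls and 7.36, 26.9 and 155 in the other RhoC tumors. R-1 was above every other tumor for *Il17re*, but for *Il17rc* R-13 (155 CPM) and R-6 (127 CPM) were higher. Of 12 tested IL-17 ligands, receptors and targets elsewhere, 2 were more than 1 unit above the median in R-1 and 5 more than 1 unit below, as were 14.1% of all genes. *Il17rd* (31.9 against a median of 15.2 CPM) and the secreted *Lcn2* (7260.0 against 3033 CPM) were above. *Il17d* and the inflammatory genes *Cxcl1*, *Cxcl5*, *S100a8* and *S100a9* were below, *Cxcl1* at 4.23 against 10.7 CPM.

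*Arpc4*, a subunit of the Arp2/3 complex that nucleates branched actin, reached 857 CPM in R-1, against 91.8, 134 and 212 in controls and 95, 221 and 1253 in the other RhoC tumors. R-13 had the highest level, and R-15 reached 713 CPM. Of 18 Arp2/3 and WAVE genes elsewhere, *Wasf3* was more than 1 unit above the median in R-1 (0.738 against 0.275 CPM) and *Wasf1* more than 1 unit below (1.61 against 5.45 CPM), with a list median of -0.11.

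Chromatin and DNA repair were represented by 4 members, each higher in R-1 than in every other tumor. *Brpf1*, a scaffold of MOZ and MORF acetyltransferase complexes, was at 251 CPM in R-1 (controls 31, 50.7 and 84.9), and *Tada3*, an adaptor of the SAGA and ATAC complexes, at 136 CPM (controls 10.1, 19.4 and 26.7). *Ogg1*, the glycosylase that removes oxidized guanine, was at 63.8 CPM (controls 5.63, 10.1 and 16), and *Fancd2*, of the Fanconi anemia crosslink repair pathway, at 47.4 CPM (controls 6.61, 11.8 and 23.6). Elsewhere, 19 SAGA and ATAC, 11 MOZ/MORF and HBO1, 15 base excision repair and 17 Fanconi genes were tested. None of them differed by more than 1 unit in R-1, with list medians of 0.01, -0.20, 0.24 and 0.12. The Fanconi genes ran from -0.82 to 0.90.

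Other members encode membrane or signaling proteins. *Emc3*, a subunit of the complex that inserts membrane proteins at the endoplasmic reticulum, reached 583 CPM in R-1 (controls 69.8, 88.1 and 118), *Jagn1*, an endoplasmic reticulum protein needed by neutrophils, 113 CPM (controls 7.54, 15.1 and 19.4), and *Creld1*, known from heart septum formation, 234 CPM (controls 5.14, 13.1 and 36.5). Of 9 other subunits of the insertion complex, *Emc9* was above 1 unit in R-1 (4.45 against 1.89 CPM). *Mtmr14*, a phosphoinositide phosphatase, differed by 2.67, while of 13 related phosphatases elsewhere *Mtmr7* was below (1.04 against 4.45 CPM). *Rpusd3*, a mitochondrial pseudouridine synthase family member, differed by 3.25 and the tubulin ligase-like *Ttll3* by 2.06. *Camk1*, a calcium-dependent kinase, differed least among the tested coding members, by 1.57, and at 151 CPM was 1.44 times the next tumor.

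The run was wider than the window. Counted outward over tested coding genes until 2 in a row were at or under 1 unit, it ran in R-1 from *Setd5* (1.58) to *Sec13* (2.34), over 0.663 Mb, and 20 of 20 genes in it were above 1. *Thumpd3*, the gene before, differed by -0.29 and *Atp2b2*, the gene after, by -1.90. At the proximal edge of the window *Mtmr14* inside differed by 2.67 and *Setd5* outside by 1.58, and at the distal edge *Fancd2* inside by 1.92 and *Brk1*, a small WAVE subunit, outside by 2.48. *Gt(ROSA)26Sor*, the noncoding gene of the R26 locus that holds the RhoC allele, ends 0.161 Mb before *Mtmr14* and differed by -0.07 in R-1. *Setd5*, next to it, was at 990.4 CPM in R-1 but higher in R-7 (1109) and R-16 (1291), against 202 to 449 in controls.

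The chromosome 6 run was not private to R-1. In R-15 its median difference was 1.49, with 11 of 16 members above 1 (7.62% of all genes were), and in R-13 it was 1.42, with 11 of 16 (11.7% of all genes). R-2 followed at 0.85 with 7 members above 1 (12.6% of all genes), R-16 at 0.46 with 1 (6.39% of all genes) and R-6 at 0.43 with 6 (12.5% of all genes). R-13 and R-15 came from mouse P497, as did R-16 and R-14, the latter with a median of 0. R-7 had the lowest median of the 21 tumors, -1.01, and was below the median tumor for all 16 members.

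The raised stretch differed between these tumors. In R-13 it ran from *Mtmr14* (1.77) to *Creld1* (1.43), with *Camk1* inside it at -0.60, and the next members *Emc3* and *Fancd2* differed by -0.04 and -0.10. In R-15 it went on past the window, with *Emc3* at 1.81, *Brk1* at 2.01 and *Hrh1*, its last gene, at 2.96. In R-6 the rise was uneven: *Rpusd3* differed by 2.19 and *Il17rc* by 3.10, whereas *Creld1*, next to *Il17rc*, differed by -0.59 and *Camk1* by -0.96.

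**Figure D2:**
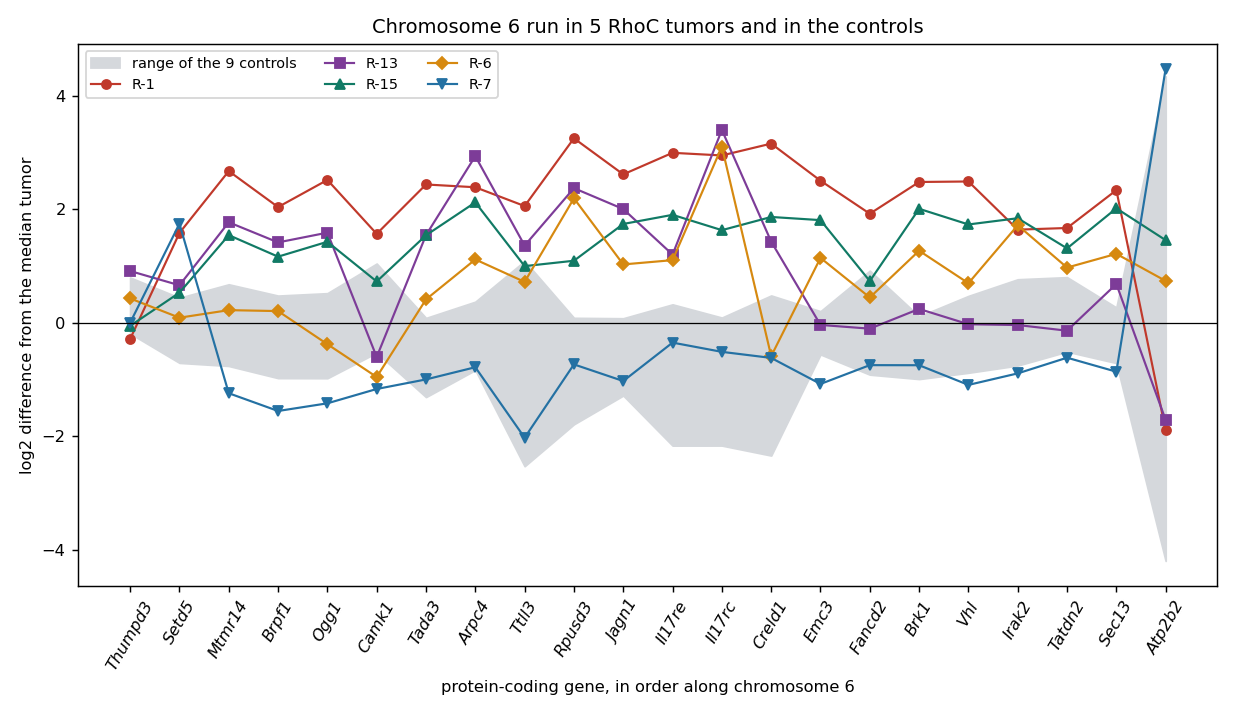
Log2 difference from the median tumor (y axis) for coding genes of the chromosome 6 run and its neighbors in chromosomal order (x axis), with a colored line for each of 5 RhoC tumors and the range of the 9 controls in grey. R-1 is above 1 from Setd5 to Sec13, R-13 falls from 1.43 at Creld1 to -0.04 at Emc3, and R-7 lies below 0 from Mtmr14 to Sec13.

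The 3 untested chromosome 6 members had few reads in R-1. *Cidec*, a lipid droplet gene of adipocytes in the middle of the run, had 3 reads in R-1 and 2968 in N-17, the tumor with the highest summed adipocyte markers (2386 CPM). The pseudogene *Gm20589* had 1 read in R-1 and at most 15 elsewhere, and *Gm15492*, antisense to *Brpf1*, had 21 and at most 20.

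In R-2, all 7 tested chromosome 11 members were more than 1 unit above the median tumor, as were 12.6% of all genes, and all 7 were highest of the 21 tumors, as were 5.56% of all genes. The 4 coding members serve membrane traffic. *Nsf*, the ATPase that takes SNARE complexes apart, was at 1024 CPM in R-2, against 39.4, 48.7 and 56.5 in controls and 27.6, 56.1 and 104 in the other RhoC tumors. *Gosr2*, a Golgi SNARE, was at 1240.3 CPM, against 50.3, 64.3 and 92.2 in controls and 42.4, 85.7 and 195 in the other RhoC tumors. R-2 was 9.81 and 6.36 times the next tumor for these genes. *Arf2*, a small GTPase of vesicle formation, was at 617 CPM, against 12.1, 22.4 and 33.6 in controls and 14.6, 25.2 and 65 in the other RhoC tumors. *Plekhm1*, an adaptor for lysosome fusion, was at 503 CPM, against 33.4, 49.3 and 92.8 in controls and 28.8, 58.4 and 121 in the other RhoC tumors. For all 4 genes R-2 lay apart from both groups.

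The noncoding members followed. *C130046K22Rik*, which overlaps the start of *Gosr2* by 175 bases on the other strand, differed by 3.92 where *Gosr2* differed by 3.96, and *Arhgap27os1* and *Gm11642* differed by 3.88 and 3.70. Whether counting used the strand is not stated, so reads of overlapping genes may be misassigned. Of the untested members, the pseudogene *Gm8738* inside *Nsf* had 107 reads in R-2 and at most 17 elsewhere, and *Gm11643* had 2 and at most 36.

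Genes elsewhere that work with these proteins did not share the rise. In R-2, none of 16 NSF cofactors and Golgi SNAREs and none of 5 other ARF GTPases differed by more than 1 unit, with list medians of -0.12 and -0.17. Of 14 genes of late endosome and lysosome fusion, *Map1lc3a* was more than 1 unit below the median (8.15 against 19.6 CPM), as were 6.97% of all genes.

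Here too the raised stretch passed the proximal edge of the window. *Map3k14*, a kinase of the alternative NF-κB pathway, differed by 5.32 and *Arhgap27*, a GTPase-activating protein, by 4.29. At that edge *Arhgap27os1* inside differed by 3.88 and *Arhgap27os2* outside by 3.18, and at the distal edge *Arf2* inside by 4.67 and *Mapt* outside by 0.17. By the outward count it ran from *Hexim1* (1.24) to *Kansl1* (1.13), over 1.35 Mb. *Plekhm1* starts 4.93 Mb distal of *Erbb2*, the locus of the Neu allele. The 32 tested genes within 0.5 Mb of *Erbb2* had a median of -0.44 in R-2. The 9 controls ran from -0.76 to 4.44 with a median of 0.07, and among them only N-15 lay below R-2.

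Milder rises in the chromosome 11 window were seen in R-21, with a median of 1.29 and 5 of 7 members above 1 (9.63% of all genes were), and in R-16, with 0.99 and 3 members (6.39% of all genes). For *Arf2*, R-21 was at 65 CPM and R-16 at 48.2, both above the highest control. In R-1 the window had a median of 0.45, but genes just distal of it were raised there, *Kansl1* by 2.04 and *Itgb3*, an integrin chain, by 4.58.

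**Figure D3:**
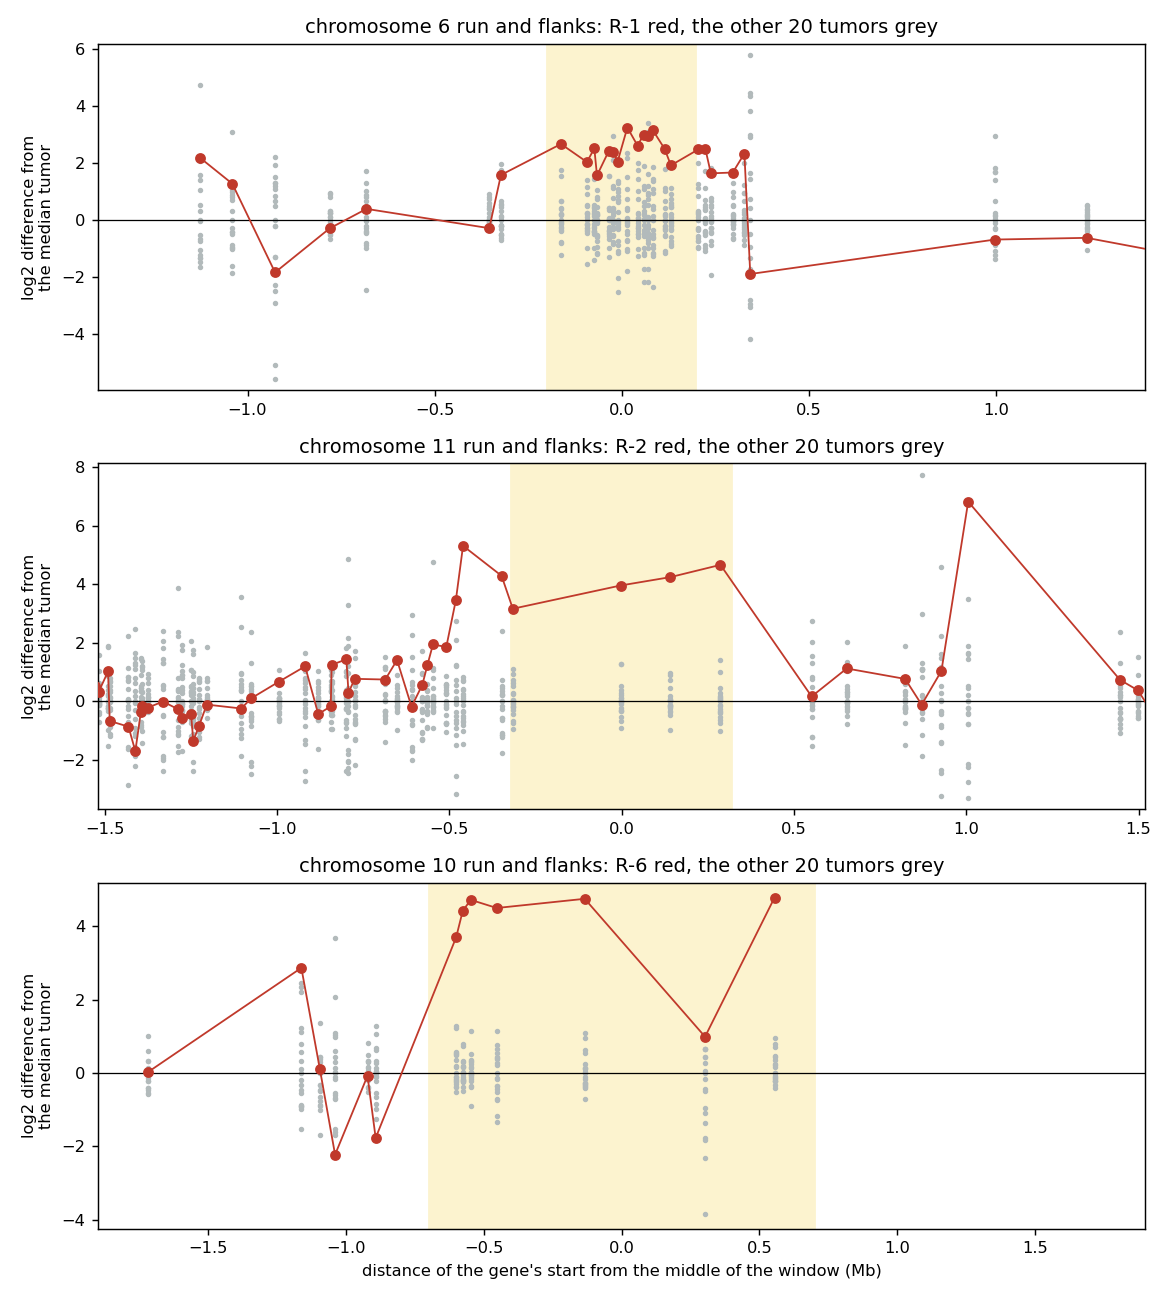
Log2 difference from the median tumor (y axis) for coding genes in and around each run, by distance of the gene's start from the middle of the window in Mb (x axis), with the window shaded, the raised tumor in red and the other 20 tumors in grey. In R-2 the difference drops from 4.67 at Arf2 to 0.17 at Mapt, in R-6 it climbs from -1.77 at Phactr2 to 3.70 at Fuca2, and Adgrg6 at 0.99 interrupts the run of R-6.

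In R-6, *Hivep2*, a zinc finger transcription factor, stood at 3677 CPM, against 84, 113 and 162 in controls and 104, 149 and 289.6 in the other RhoC tumors. *Vta1*, a cofactor of the VPS4 ATPase in endosomal sorting, stood at 892 CPM, against 24.5, 29.5 and 56.1 in controls and 27.8, 36.3 and 63.1 in the other RhoC tumors. R-6 was 12.7 and 14.1 times the next tumor for these genes, whose promoters are printed above. *Adat2*, the catalytic subunit of a tRNA adenosine deaminase, stood at 183 CPM, against 3.67, 6.39 and 8.80 in controls and 5.38, 7.77 and 15.4 in the other RhoC tumors. *Pex3*, a membrane factor of peroxisome formation, stood at 473 CPM, against 15.6, 19.8 and 38 in controls and 17, 22 and 27.7 in the other RhoC tumors. Both were again highest in R-6 and did not overlap with any other tumor.

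*Aig1*, a hydrolase of fatty acid esters, stood at 892 CPM in R-6 (controls 17.7, 30.6 and 87.2) and *Fuca2*, a fucosidase, at 974 CPM (controls 57.2, 69.3 and 181). These 6 coding genes differed by 3.70 (*Fuca2*) to 4.78 (*Vta1*). Over the 10 tested members, 7 were above 1 in R-6, as were 12.5% of all genes, and 7 were highest of the 21 tumors, as were 8.86% of all genes.

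*Adgrg6*, an adhesion G protein-coupled receptor known from Schwann cell myelination, was the exception among the tested coding members. It stood at 396 CPM in R-6, below N-4 at 414, and the other tumors went down to 13.8 CPM in N-7. *Gm46212* and *Gm10335*, which overlap it, differed by 1.31 and 0.40, at 0.582 and 0.301 CPM. In the authors' coordinates *Nmbr*, a neuropeptide receptor, starts 30 bases from *Vta1* on the other strand, but its RefSeq promoter lies farther off, inside those coordinates. It had 30 reads in R-6 where *Vta1* had 44455. *Gm16234*, antisense to *Vta1*, had 20 reads in R-6 and at most 21 elsewhere.

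*Gm48773*, a long noncoding RNA between *Adat2* and *Aig1*, did not pass the filter, with 2552 reads in R-6, 67 in R-13, 28 in R-14, 1 in R-12 and 0 in each of the other 17 tumors. The same 4 tumors had the highest summed markers of basal and squamous epithelium, and R-12, R-13 and R-14 came next to R-6 in *Hivep2*, at 289.6, 267 and 212 CPM. The control N-1, next in these markers at 3623 CPM, had 104 CPM of *Hivep2*, below the median of 137. The part of basal and squamous cells in these levels was not tested.

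Of 14 ESCRT-III and VPS4 genes elsewhere, partners of *Vta1*, *Chmp1b* was above 1 unit in R-6 (151 against 65.2 CPM), and the list median was 0.27. Of 4 RNA adenosine deaminases *Adarb1* was above 1 unit (109 against 19.2 CPM), with a list median of -0.13. None of 13 lysosomal glycosidases differed by more than 1 unit (list median -0.28), where 12.5% of all genes were above and 16.7% below by as much.

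At the proximal edge of the chromosome 10 window *Fuca2* inside differed by 3.70 and *Phactr2* outside by -1.77 in R-6, and at the distal edge *Gm8355* inside by 0.67 and *Gm7198* outside by 0.29. Few genes lie beyond, and the outward count went on across that gap to *Txlnb* (5.27). R-7, from the same mouse as R-6, had a median of 0.16, and the highest median of the other 20 tumors was 0.69 (N-6).

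**Figure D4:**
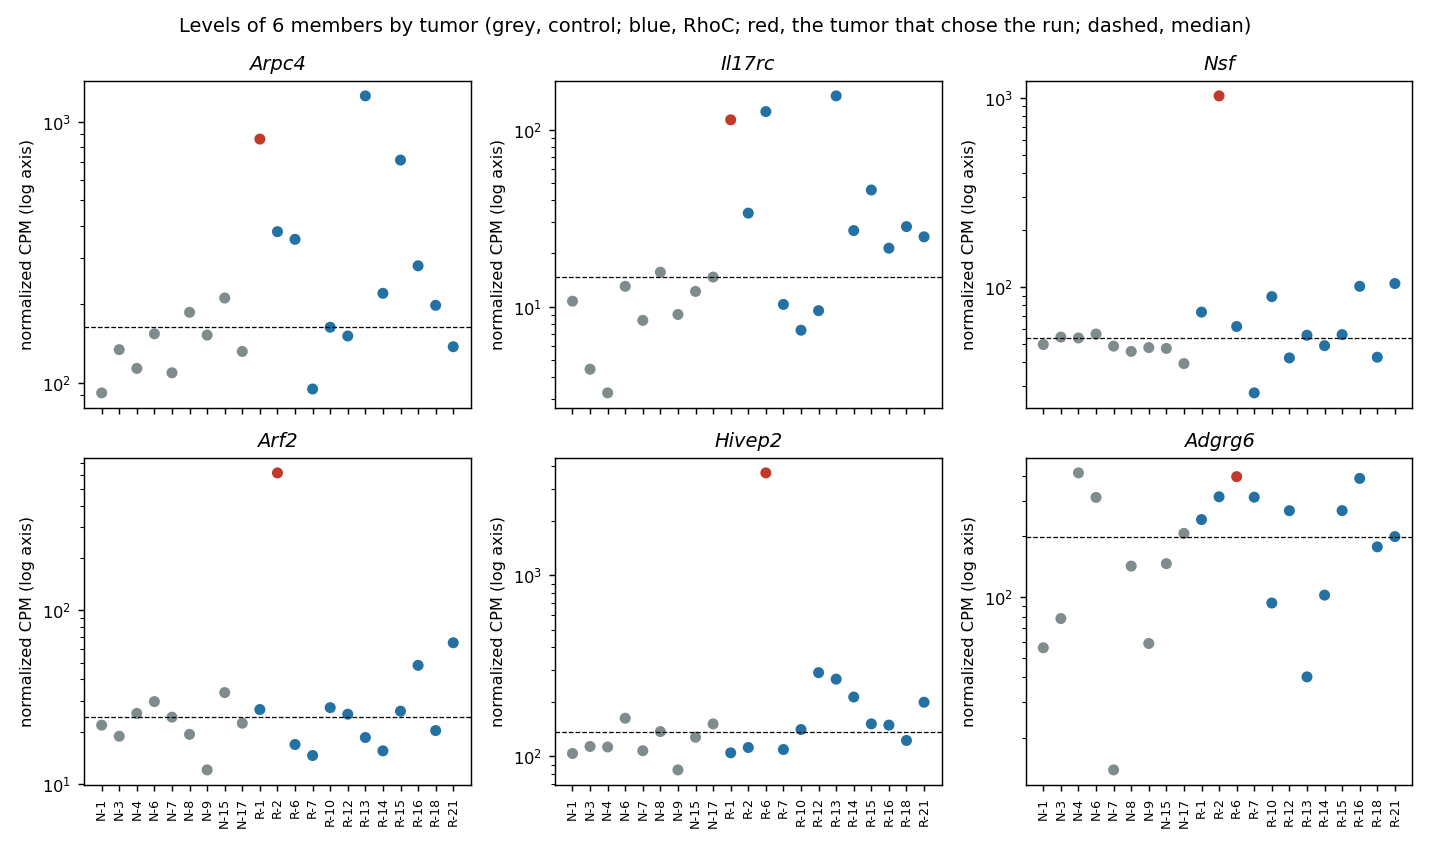
Normalized CPM on a log axis (y axis) for 6 members in the 21 tumors (x axis), with the median as a dashed line. In Nsf, Arf2 and Hivep2 the red tumor lies far above the rest, in Arpc4 and Il17rc at least 1 other RhoC tumor exceeds it, and Adgrg6 in R-6 (396 CPM) lies below N-4 (414 CPM).

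Members that start next to each other on opposite strands were set side by side in the raised tumor. *Tada3* and *Arpc4*, 231 bases apart, differed from the median by 2.44 and 2.39, and *Emc3* and *Fancd2*, 29 bases apart, by 2.50 and 1.92. *Pex3* and *Adat2*, which overlap by 249 bases, differed by 4.43 and 4.72. In R-13 the first pair was less alike, with *Tada3* at 1.55 and *Arpc4* at 2.94.

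Over all 14566 stretches of 5 neighboring tested coding genes in the genome, the best one of the chromosome 6 window held place 5 in R-1, that of chromosome 11 place 2 in R-2 (median 4.25) and that of chromosome 10 place 33 in R-6 (median 4.72). The chromosome 11 window holds 4 coding members, so its stretch took in 1 tested coding gene that is not a member. The top stretch in R-6, from *Krt87* to *Krt5* on chromosome 15, had a median of 9.32. These stretches overlap, so that 1 raised region can be counted several times. Those with a median above 2, the runs described here included, numbered 67 in R-1, 94 in R-2 and 160 in R-6, against 18 to 103 in controls and 10 to 108 in the other RhoC tumors.

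Whether the members differed between RhoC and control tumors was tested without R-1, R-2 and R-6, in 9 RhoC and 9 control tumors. The test was edgeR's quasi-likelihood test over 18922 genes with Benjamini-Hochberg adjustment. All of these RhoC tumors and no control carried the RhoC allele in the R26 locus, near the chromosome 6 members. The part of that engineered locus in their levels was not tested. Of 32 members tested, 0 had an adjusted p under 0.05, where 0.00528% of all genes were called higher and 0.0264% lower in RhoC tumors. At an unadjusted p under 0.05 by edgeR, 9 members were higher and 1 lower in RhoC tumors, beside 8.42% and 8.23% of all genes. Of the 9 higher, 7 were neighbors in the chromosome 6 run, 1 was on chromosome 11 and 1 on chromosome 10. DESeq2 called 1 of the 40 members it tested, *Il17rc*, as higher, beside 1.79% of all genes, and voom with mouse as a random effect called 0. The 9 RhoC tumors came from 6 mice. With mouse as a random effect 2 of 32 members were higher at an unadjusted p under 0.05, beside 4.66% of all genes. With counts summed per mouse 3 of 33 were, beside 5.15% of all genes. These fits gave median log2 fold changes of 0.20 and 0.22 over the members. In the edgeR fit over tumors, the log2 fold change was positive for 25 members and for 47.7% of all genes, with a median of 0.37 over the members and -0.02 over all genes.

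By run, the median log2 fold change was 0.56 over 16 chromosome 6 members, 0.44 over 6 chromosome 11 members and 0.10 over 10 chromosome 10 members. The smallest adjusted p was that of *Il17rc*, whose mean over the RhoC tumors was 36.6 ± 46.1 CPM (SD, 9 tumors) against a control mean of 10.2 ± 4.31 CPM (SD, 9 tumors), a log2 fold change of 1.85 (SE 0.52, edgeR adjusted p = 0.141), with 6 of 9 RhoC tumors above the control median. *Creld1* had a log2 fold change of 1.27 (SE 0.41, edgeR adjusted p = 0.180), with 9 of 9 above. *Arpc4* had 1.32 (SE 0.43, edgeR adjusted p = 0.184), with 8 of 9 above, and *Hivep2* had 0.58 (SE 0.19, edgeR adjusted p = 0.190), with 8 of 9 above. Before adjustment, the edgeR p-values of these genes ran from 0.0021 (*Il17rc*) to 0.0076 (*Hivep2*). After adjustment for all genes tested, none of these differences had a p under 0.05. R-13 carried much of the first and the third: without it the log2 fold change was 1.10 (SE 0.37, edgeR adjusted p = 0.257) for *Il17rc* and 0.78 (SE 0.32, edgeR adjusted p = 0.328) for *Arpc4*, and 6 members in place of 9 were higher at an unadjusted p under 0.05, beside 6.8% of all genes. Without R-16 the median log2 fold change over the members was 0.24.

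Without R-13 and R-15 as well, 22 of 33 members had a positive log2 fold change, beside 47.3% of all genes, and the median over the members was 0.13. At an unadjusted p under 0.05 by edgeR, 4 members were higher and 1 lower in that fit, beside 5.8% and 4.76% of all genes. With all 21 tumors, 0 of 33 members were called by edgeR (0.0932% of all genes were called higher and 0.129% lower) and 8 of 41 by DESeq2, all higher, beside 3.13% of all genes. At an unadjusted p under 0.05 by edgeR, 21 were higher and 0 lower, beside 10.5% and 9.93% of all genes, and 32 log2 fold changes were positive, beside 49.6% of all genes. That fit contains the tumors by which the runs were chosen, and nothing is read from it. None of the partner lists described had a gene called by edgeR in either comparison.

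**Figure D5:**
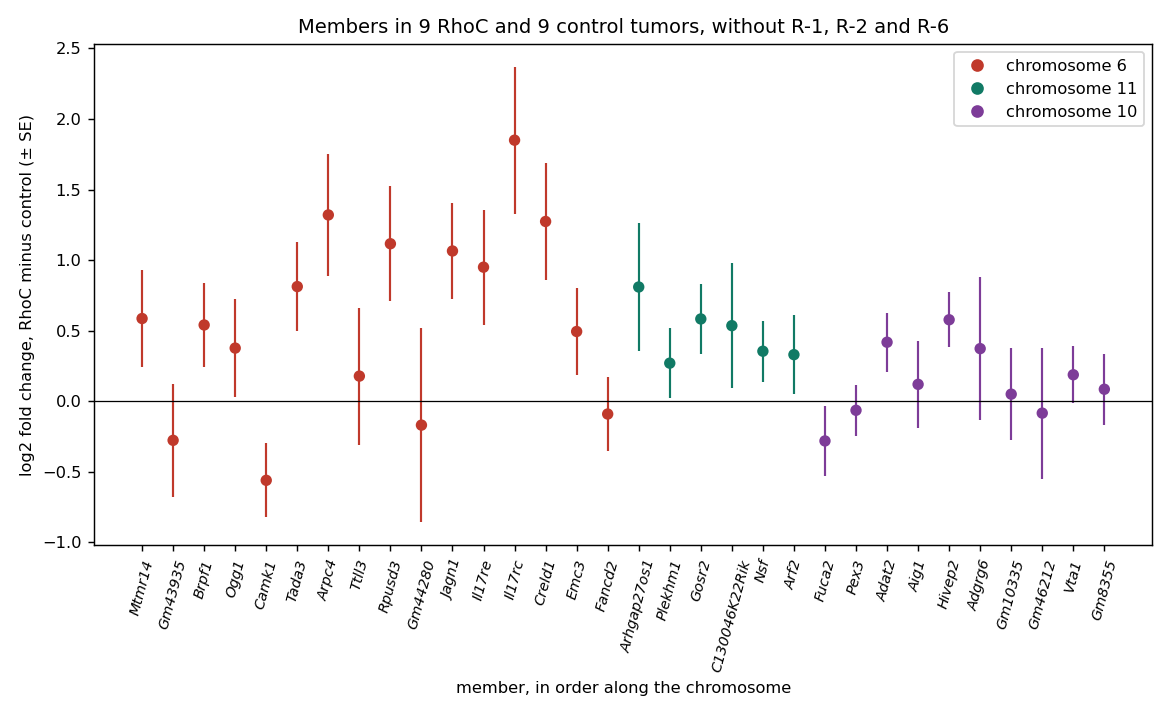
Log2 fold change of RhoC minus control tumors with its SE as a bar (y axis) for the 32 members tested without R-1, R-2 and R-6 (x axis), with 9 tumors a group. Il17rc is highest at 1.85, Camk1 is lowest at -0.56, and no member passed the adjusted threshold.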

How the data were processed

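Bulk RNA-seq of 9 control and 12 RhoC tumors was analyzed from the deposited raw counts per gene, whole numbers that the authors had not scaled. The submitters' processing notes name FastQC 0.11.5, Trim Galore 0.5.0, STAR 2.6.0c and HTSeq 0.6.1p2 with GRCm38.p6, and reads on more than 1 gene were dropped. Strand setting and annotation release are not given in the sources used here. FPKM scaled by the authors was taken from the deposited tables for levels per length, and their fold changes and p-values were not used. Genes that the selection leaves out by name and 1 partner list are not reported here.

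In R 4.3.3, edgeR 4.0.16 was run with filterByExpr, TMM, a prior count of 2 for log2 CPM, and the quasi-likelihood test without covariates (adjusted p under 0.05). The SE is the size of the log2 fold change over the square root of F. Alternatives were DESeq2 1.42.0, voom (limma 3.58.1) with mouse as a random effect, other scalings, filters and reference tumors, and leaving out each tumor.

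The members and gene lists were chosen with earlier results of these data known. By the rule for names, any tested member could be named, with values for at most 12 a run, the genes at the window edges and partner genes past 1 log2 unit. Untested members, other flanking genes and *Stx6* were named after their values were seen. On simulated counts for the comparison without R-1, R-2 and R-6 (18922 genes, 200 changed by 2 log2 units), edgeR recovered 66.5% of the changed genes and called 5 unchanged ones. That change is larger than the highest of any member there, 1.85. The simulated tumors were independent, with none sharing a mouse. Recovery at the sizes seen was therefore not measured. The mouse named in the label of R-21 is listed by the study for another tumor, and R-18, with no mouse in its label, was treated as its own.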

Additional observations from a re-analysis of the deposited data

Results flagged for a closer look

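*Jagn1* in the control N-4 stood apart from its group, at 7.54 CPM against 12.3 CPM in the next lowest of the 9 controls, a gap beyond the limit of Dixon's test. It was 1 of 66 groups of 9 tumors examined, and chance flags about 1 in 20.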

How the results depend on the processing

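The count of members called by edgeR was 0 in both comparisons. With all tumors it was 8 with DESeq2 and 1 (*Il17rc*) with only the 7 Gata4 loxP controls, a fit that called 438 of 19699 genes. When 1 tumor was left out at a time it was 0 to 1, where 14 to 346 of all genes were called. *Il17rc* was called without N-15, R-10 or R-12, fits that called 346, 94 and 108 genes. Without R-1, R-2 and R-6 the count of members was 1 with DESeq2. It was 0 in each fit that left out 1 tumor, where 4 to 9 of all genes were called. The cause was not tested. DESeq2 called 1439 and 821 of all genes in these comparisons where edgeR called 43 and 6. The count stayed at 0 in both with all genes that had a count, with library size in place of TMM, with counts summed per mouse and with voom and mouse as a random effect. It was also 0 without R-13 and R-15, a choice made after seeing the data. The tumor numbers that both groups share (1, 6, 7 and 15) only name tumors, and same-numbered tumors did not deviate together (correlations of -0.24, -0.18, -0.0029 and 0.02). A replicate block on them gave 0 calls in both comparisons. The median difference of the chromosome 10 run in R-6 was 4.06, and 3.70 with all 13 members that had a count, 4.50 with the 3 that overlap no other gene and 4.50 with the 7 tested coding members, the last chosen after seeing the data. The medians of the other runs went from 2.38 to 2.70 in R-1 and from 3.85 to 4.25 in R-2 over all settings.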
